A study of Mus musculus with 2 samples.

Results

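The unfolded protein response and the integrated stress response were followed through 35 genes, taken by gene symbol from a list of known pathway genes that was drawn up with earlier results of these data in view. Of the 35, 33 had a probe set that the platform's gene table assigns to 1 gene, and 32 of these passed the filter on signal, out of 22180 genes so named and 11905 that passed. Pdia4 and Aars have no value here, because the 1 probe set that lists each of them also lists another gene. Sesn2, which encodes the stress sensor sestrin 2, was measured but did not pass, with a log2 signal of 4.01 on each array.

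Both arrays came from RAW264.7, an established mouse macrophage line, 1 from wildtype cells and 1 from cells labelled HuR-deficient. HuR, the product of Elavl1, binds U-rich stretches of many mRNAs and is known to keep them stable. Both cultures had been given poly(I:C) HMW (high molecular weight), a man-made double-stranded RNA, by transfection with lipofectamine 2000 for 8 hours, at 1 mg/ml by the labels. No culture without poly(I:C) was analysed here, so the values set the genotypes beside each other after stimulation and give no response to poly(I:C) itself. The sample title calls the deficient cells HuR-KO, for knockout. How the knockout was made, and whether the deficient cells are 1 clone, is not stated in what was used here.

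Proteins that fold poorly in the endoplasmic reticulum (ER) set off the unfolded protein response through 3 sensors in its membrane. PERK phosphorylates the initiation factor eIF2, which slows translation in general but favours that of ATF4. IRE1 splices the mRNA of XBP1, and ATF6 is cut to release a transcription factor. ATF4 switches on genes for amino acid supply and for the switch-off of the response, while XBP1 and ATF6 switch on ER chaperones and the machinery of ER-associated degradation (ERAD), which sends misfolded proteins to the proteasome. Other kinases feed into eIF2 as well, among them PKR, which binds double-stranded RNA; their shared output is called the integrated stress response. In macrophages these pathways support the secretion of cytokines.

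There was 1 array per genotype and therefore no replicate and no test between the genotypes. Values are log2 signals, and a difference is the array labelled HuR-deficient minus the wildtype array. The filter kept a gene whose brighter array was at or above 4.38, which is the median signal of named genes. The differences of the 11905 genes that passed had a median of 0.00 and an SD of 0.399, and the middle 50% of them lay between -0.21 and 0.23. A second view of error came from 461 genes with 2 probe sets that both passed: the differences of the 2 probe sets of a gene lay a median of 0.249 apart, and in 147 of the 461 genes (31.9%) they had opposite signs. This is a gap within the same arrays and leaves out the spread between cultures. Elavl1 itself differed by 0.07 (7.68 in wildtype cells and 7.75 in those labelled HuR-deficient), so its signal does not set the arrays apart and does not check the label. All 12 macrophage markers passed the filter, while 5 of 18 measured markers of T, NK, B, dendritic, mast, endothelial, epithelial and other cells did, the highest signal among them being 4.78. Of these 5, Krt18, a keratin of simple epithelia, was past 1.5-fold (4.66 in wildtype cells, difference -0.61), with its weaker signal of 4.05 under the floor. Of the macrophage markers, Adgre1, which encodes F4/80, differed by 1.57 and the other 11 stayed within 1.5-fold; the part of such differences in the results below was not tested. In bulk cultures, fewer cells that express a gene and less of its RNA per cell cannot be told apart.

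The members were read in 3 branches. Every one of the 10 measured ER chaperone and folding genes had a lower signal in the array labelled HuR-deficient, with a median difference of -0.35 and a range from -0.53 to -0.01. The ATF4 branch was spread to both sides, with a median of -0.18 over 15 genes that passed and a range from -0.68 for Cebpb to 0.69 for Nupr1. The genes of the sensors IRE1 and ATF6 and Xbp1 lay near 0, and the 4 ERAD genes went to both sides, from -0.325 to 0.39; the median over these 7 genes was 0.05. Whether the branches differ from each other could not be tested with 1 array per genotype.

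Of the 32 members that passed, 22 lay below 0, where 48.6% of all genes did, and 10 above 0, where 49.3% did. The median of the members was -0.17. At a difference of at least 1.5-fold, 2 members, Cebpb and Phgdh, were lower (background 5.32%) and 1, Nupr1, was higher (background 5.44%). Phgdh passed the filter through its wildtype signal alone, and with a floor of 6 the count of lower members is 1. At a log2 difference of at least 0.322, 12 were lower (background 16.8%) and 2 higher (background 17.4%). The lower ones include Eif2ak3 and Phgdh, which passed the filter through the wildtype array alone. The higher ones include Syvn1, which passed through the array labelled HuR-deficient alone. No member reached 2-fold in either direction, where 1.11% of all genes were lower and 0.882% higher. The share of members past 1.5-fold was thus close to that of genes in general, and the departure from the background lay in small differences below 0. Members share their 2 cultures and 2 arrays, so their number is not a number of replicates.

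**Figure D1:**
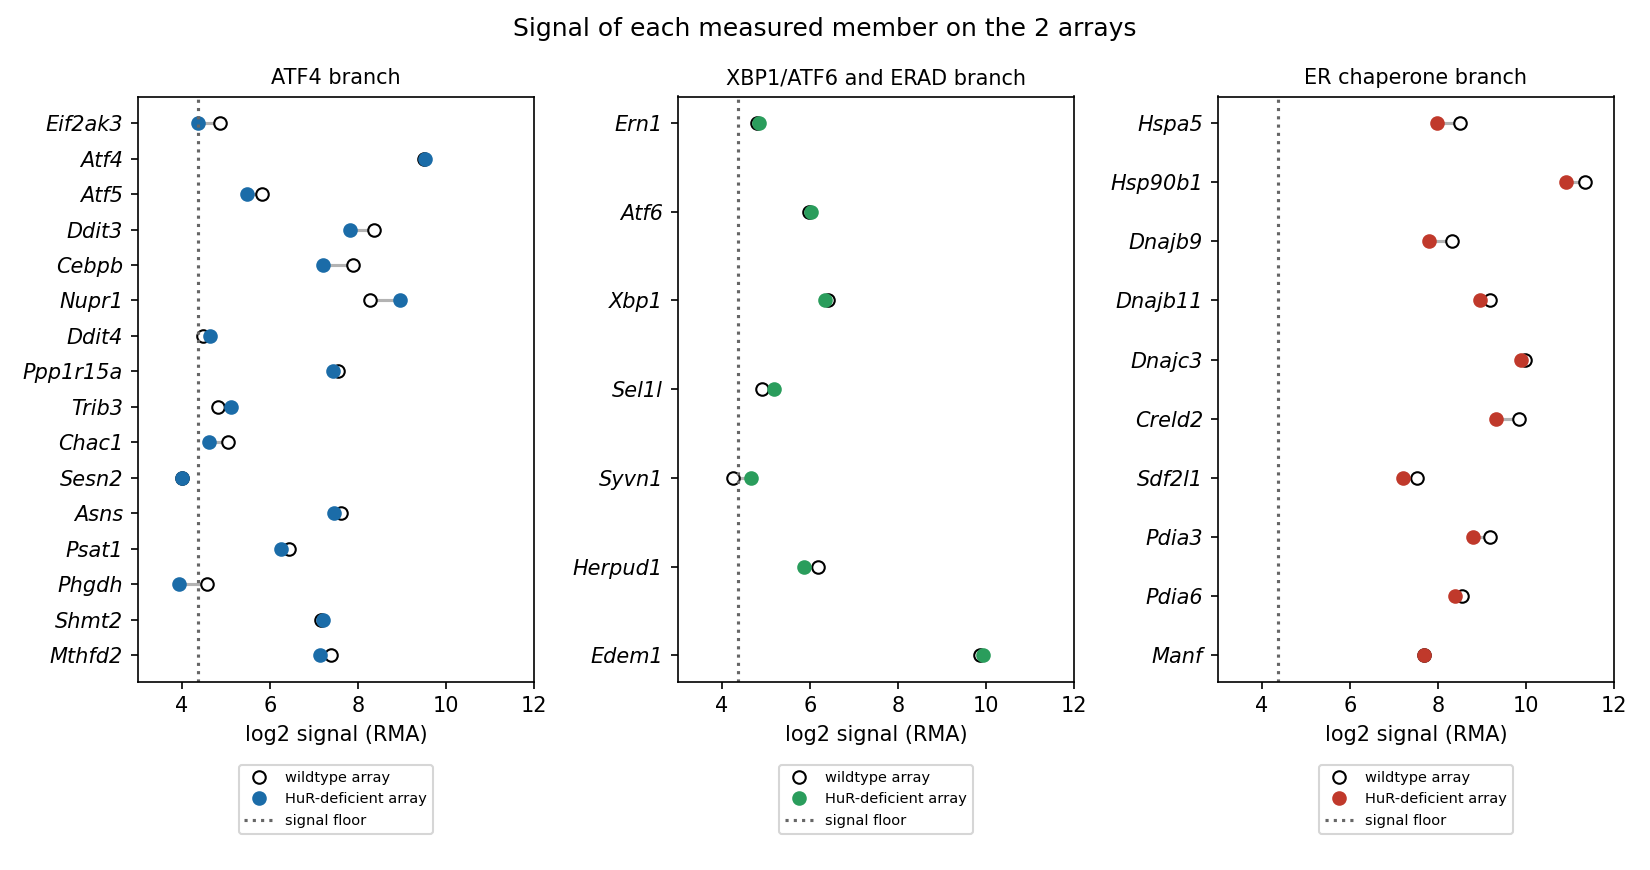
Log2 signal (x axis) of the 33 measured members on the wildtype array (open circles) and the array labelled HuR-deficient (filled circles), in 3 panels by branch, with the signal floor of 4.38 as a dotted line. In the ER chaperone panel all 10 filled circles lie to the left of the open ones, with those of Manf overlapping, while the XBP1, ATF6 and ERAD panel shows small gaps to both sides.

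Among the chaperones, the HSP70 and HSP90 proteins of the ER lumen come first. Hspa5, which encodes BiP, the chaperone that holds the sensors inactive until unfolded proteins draw it away, gave 8.50 in wildtype cells and 7.98 in those labelled HuR-deficient, a difference of -0.52 (1.44-fold lower). Hsp90b1, which encodes the ER paralogue of HSP90 and folds integrins and Toll-like receptors, had 11.34 and 10.90, a difference of -0.44 (1.36-fold lower). Of all genes that passed, 6.97% lay lower than Hspa5 and 9.95% lower than Hsp90b1, so each lies toward the lower end of the genes without being among the extremes.

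BiP works with J-domain proteins, which hand it substrates and start its ATPase. Dnajb9 (ERdj4), an inducible partner of BiP, had 8.33 in wildtype cells and 7.80 in those labelled HuR-deficient, a difference of -0.53 (1.45-fold lower). Dnajb11 (ERdj3) had 9.19 and 8.96, a difference of -0.23. Dnajc3, also called p58IPK, an inhibitor of eIF2 kinases as well as a co-chaperone, had 9.98 and 9.89, a difference of -0.09. The partners of BiP were thus lower by unequal amounts, and the differences of Dnajb11 and Dnajc3 were smaller than the median gap between probe sets of 1 gene.

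The protein disulfide isomerases form and shuffle disulfide bonds. Pdia3 (ERp57), which acts on glycoproteins held by calnexin and calreticulin, had 9.17 and 8.79, a difference of -0.38 (1.30-fold lower). Pdia6 had 8.54 and 8.38, a difference of -0.17. Creld2, a secreted ER stress protein with isomerase activity, had 9.84 and 9.31, a difference of -0.53 (1.45-fold lower). These genes again lay on 1 side of 0, with Creld2 at the lower end.

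Sdf2l1, a lumenal partner of the J-domain proteins, had 7.52 in wildtype cells and 7.20 in those labelled HuR-deficient, a difference of -0.318. Manf, which encodes a secreted protective factor that binds BiP, had nearly equal signals of 7.69 and 7.68, a difference of -0.01. Manf is thus the chaperone-branch member with no visible difference, and its sign turned to 0.02 when the arrays were quantile-normalised again and to 0.01 when a trend on signal was removed. At a log2 difference of at least 0.322, 5 of the 10 were lower (background 16.8%) and 0 higher (background 17.4%). At 1.5-fold, 0 were counted in either direction, where 5.32% of all genes were lower and 5.44% higher.

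The direction of the chaperones was also set beside genes of like signal. Their mean signals spanned a range that holds 2107 genes that passed; of these, 1089 (51.7%) lay below 0, their median was -0.01, and 301 were lower by at least 0.322. Each member was further set against the robust SD (scaled median absolute deviation) of the differences in its class of like mean signal (10 classes of equal size), which ran from 0.209 to 0.319 for the chaperones. Of the 10, 6 lay beyond it, against 33.0% of all genes that passed, 7 of 15 in the ATF4 branch and 1 of 7 in the XBP1, ATF6 and ERAD branch. The 6 were Hspa5, Hsp90b1, Dnajb9, Dnajb11, Creld2 and Pdia3, while Sdf2l1, Pdia6, Dnajc3 and Manf lay inside it. The 7 include Eif2ak3 and Phgdh, which passed the filter through the wildtype array alone. The 1 in the last branch is Syvn1, which passed through the array labelled HuR-deficient alone.

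**Figure D2:**
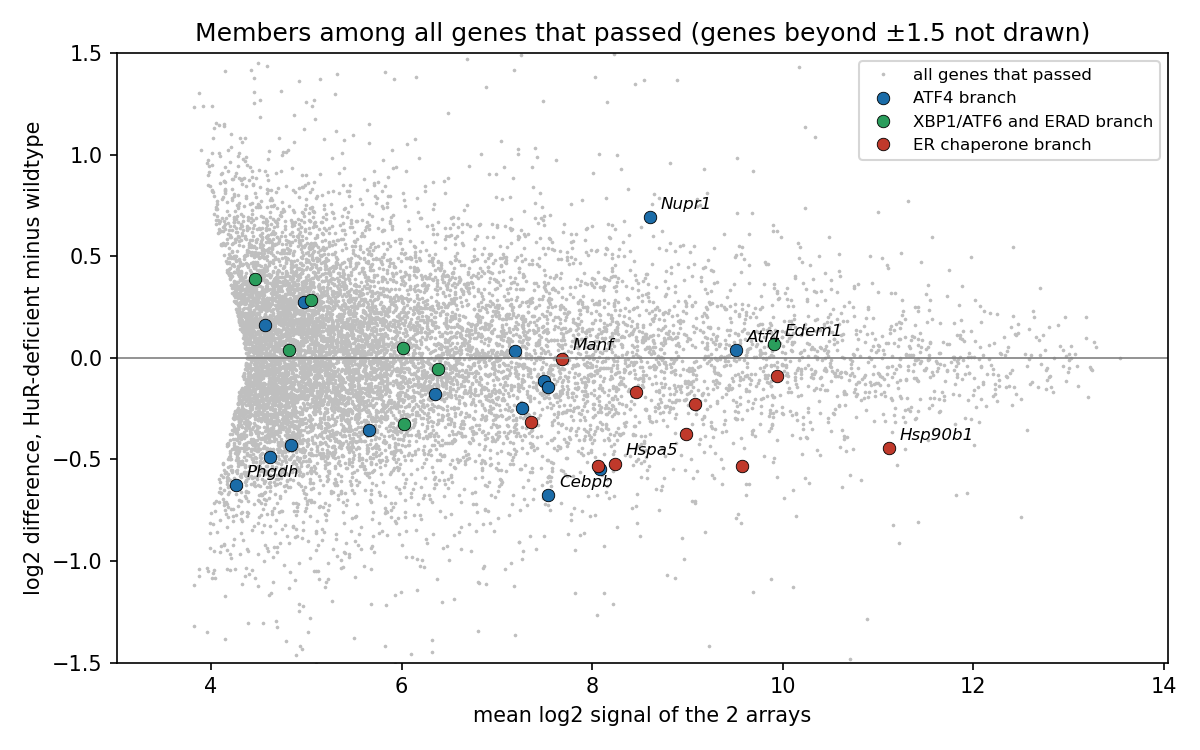
Log2 difference, array labelled HuR-deficient minus wildtype array (y axis), against the mean log2 signal of the 2 arrays (x axis), for all 11905 genes that passed (grey, those beyond 1.5 not drawn) and the members coloured by branch. The 10 ER chaperone points lie at or below 0 at mid to high signal, and Nupr1 stands alone above the other members.

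The promoters of these genes are known for the ER stress response element, ERSE, to which ATF6 and XBP1 bind together with the factor NF-Y. RefSeq promoter windows (assembly GRCm38.p6, 250 bases before to 50 after the start site) were at hand for 33 of the 35 members; Atf6 and Manf are not in that table. The full ERSE, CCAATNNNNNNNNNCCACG on either strand, was found in 6 members, in 5 of 10 chaperone-branch genes with a window and in Syvn1, and in 0.119% of all 32851 promoter windows. The related ERSE-II (ATTGG, any base, CCACG) was found in Herpud1 and, after the start site, in Dnajb11, and in 0.0365% of all windows. The UPRE, TGACGTGG, was found in 0 members and 0.676% of windows. The windows below are those of the members with an ERSE or ERSE-II match before the start site, Herpud1 having ERSE-II without the full ERSE. The differences of these genes lay below 0 except in Syvn1, and those of Pdia6 and Dnajc3 were smaller than the median gap between probe sets. The windows are printed in the direction of transcription, with the fixed letters of each match in capitals. A match is a description of the sequence and not evidence of binding.
Hspa5, chr2:34772013-34772055, + strand: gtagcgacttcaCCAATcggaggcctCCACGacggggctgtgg
Hsp90b1, chr10:86705521-86705668, - strand: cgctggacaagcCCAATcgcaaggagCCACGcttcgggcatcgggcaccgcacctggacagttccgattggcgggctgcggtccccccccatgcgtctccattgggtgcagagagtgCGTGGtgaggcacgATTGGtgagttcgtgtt
Creld2, chr15:88819508-88819550, + strand: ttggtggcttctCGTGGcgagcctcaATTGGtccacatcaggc
Pdia6, chr12:17266479-17266521, + strand: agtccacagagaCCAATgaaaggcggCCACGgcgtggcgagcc
Dnajc3, chr14:118937815-118937857, + strand: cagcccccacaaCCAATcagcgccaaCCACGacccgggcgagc
Syvn1, chr19:6046520-6046562, + strand: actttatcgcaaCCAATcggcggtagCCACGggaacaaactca
Herpud1, chr8:94386305-94386399, + strand: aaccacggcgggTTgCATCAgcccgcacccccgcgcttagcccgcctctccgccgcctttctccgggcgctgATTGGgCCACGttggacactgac

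Hsp90b1 holds 2 full elements, 1 on each strand, and Herpud1 also holds a match to the ATF4 element described below. Among the carriers of the full element the differences were -0.53 for Creld2, -0.52 for Hspa5, -0.44 for Hsp90b1, -0.17 for Pdia6, -0.09 for Dnajc3 and 0.39 for Syvn1, whose wildtype signal was below the floor. Dnajb9 (-0.53) and Pdia3 (-0.38) have a window without the full element. Over the whole array, 15 genes that passed had a full ERSE in their window, and 13 of them lay below 0 with a median of -0.13, against 48.5% of the 9303 genes that passed and had a window. The 9 that are not members had a median of -0.07, with 8 below 0. The lectin chaperone genes Canx (-0.46) and Calr (-0.44) were the lowest. In between lay Pan2 (-0.16), Ero1b (-0.13), an oxidase that recharges the disulfide isomerases, Zfp57 (-0.07), Hnrnpa3 (-0.06), Xlr3a (-0.03) and Spats2l (-0.03). Alg12 (0.20), a mannosyltransferase of N-glycan assembly, was the 1 above 0. Canx, Calr and Ero1b are in a list of ER genes read below, and the rest are in none of the lists. Of those other 9, Canx and Calr were therefore the carriers whose difference exceeded the median gap between probe sets. ERSE-II was in the window of 9 genes that passed, with 5 (55.6%) below 0 and a median of -0.16. The 7 of these that are not members had a median of 0.00, with 3 below 0. For the UPRE, 60 of 99 genes that passed (60.6%) lay below 0, with a median of -0.06.

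**Figure D3:**
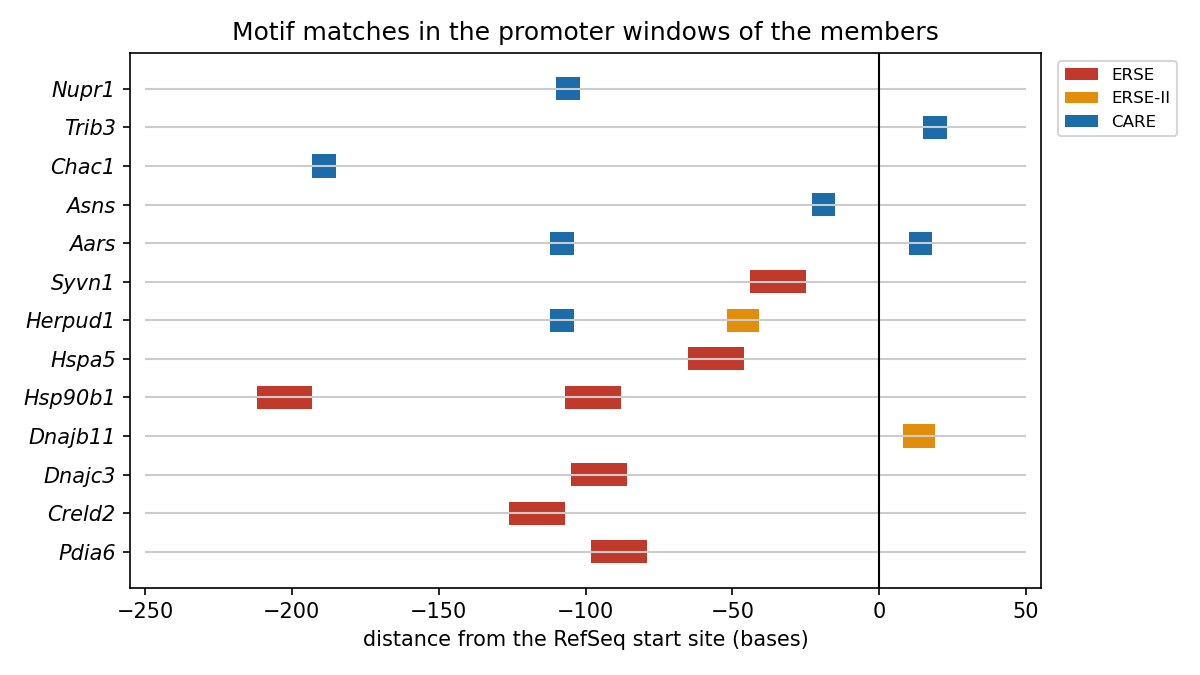
Position of each match to ERSE, ERSE-II and CARE (coloured bars) in the 300-base promoter windows of the 13 members that hold one, as distance in bases from the RefSeq start site (x axis). ERSE matches lie upstream of the start site in every carrier, between -212 and -26.

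In the branch upstream of the chaperones, the sensor genes had nearly equal signals. Ern1, which encodes IRE1, had 4.80 in wildtype cells and 4.84 in those labelled HuR-deficient, a difference of 0.04. Atf6 had 5.99 and 6.04, a difference of 0.05. Xbp1 had 6.41 and 6.35, a difference of -0.05. All 3 differences were well inside the gap between probe sets of 1 gene. The deposited values give 1 level for Xbp1, so spliced and unspliced mRNA were not told apart, and neither the cutting of ATF6 nor the phosphorylation of the sensors is seen in mRNA levels.

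The ERAD genes went to both sides. Sel1l and Syvn1 encode the core of the HRD1 ubiquitin ligase in the ER membrane. Sel1l had 4.91 in wildtype cells and 5.19 in those labelled HuR-deficient, a difference of 0.29 at a signal close to the floor. This was inside the robust SD of its signal class (0.330). Syvn1 had 4.27 and 4.66, a difference of 0.39, with a wildtype signal below the floor. The 2 ligase genes had the highest differences of this branch, and Syvn1 passed the filter through the array labelled HuR-deficient alone.

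Herpud1, an adaptor of that ligase and a strongly ER-stress-inducible gene, had 6.19 and 5.87, a difference of -0.325. Edem1, which extracts misfolded glycoproteins for degradation, had 9.87 and 9.94 on its brighter probe set, a difference of 0.07, and 9.42 and 9.27 on its other probe set, a difference of -0.16. The probe sets of Edem1 thus had opposite signs, and their average was -0.04. With the brighter probe set of Edem1, Herpud1 was the 1 ERAD member below 0, the side of the chaperones. The difference of Herpud1 was inside the robust SD of its signal class (0.329).

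The ATF4 branch begins with the eIF2 kinase PERK. Its gene Eif2ak3 had 4.86 in wildtype cells and 4.37 in those labelled HuR-deficient, a difference of -0.49, with the weaker signal just under the floor. Atf4 had nearly equal signals of 9.49 and 9.53, a difference of 0.04. ATF4 is controlled mainly through translation, so its mRNA level does not give the amount of protein.

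The other transcription factors of the branch differed by more. Ddit3, which encodes the stress factor CHOP, had 8.36 and 7.81, a difference of -0.55 (1.46-fold lower). Cebpb, a partner of CHOP and a factor of macrophage inflammatory genes, had 7.88 and 7.20, a difference of -0.68 (1.60-fold lower), with 3.59% of all genes below it. Atf5, a factor related to ATF4 and likewise controlled in translation, had 5.83 and 5.48, a difference of -0.36. These 3 genes were lower in the array labelled HuR-deficient while Atf4 was level.

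Nupr1, a small stress-induced chromatin protein, went the other way. It had 8.27 in wildtype cells and 8.96 in those labelled HuR-deficient, a difference of 0.69 (1.62-fold higher), and 3.15% of all genes lay above it. It was the member furthest above 0 and the 1 member at least 1.5-fold higher.

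The genes through which ATF4 and CHOP act back on the response did not share a direction. Ppp1r15a (GADD34), which brings a phosphatase to eIF2 and ends the translational block, had 7.56 in wildtype cells and 7.44 in those labelled HuR-deficient, a difference of -0.11. Trib3, a pseudokinase that restrains AKT and ATF4, had 4.84 and 5.11, a difference of 0.28 at a signal close to the floor. Chac1, an enzyme that breaks down glutathione, had 5.05 and 4.62, a difference of -0.43 at a signal close to the floor. Ppp1r15a was thus nearly level, and Trib3 and Chac1, both common readouts of ATF4, lay on opposite sides of 0. The difference of Trib3 was inside the robust SD of its signal class (0.330), and that of Chac1 was beyond it (0.327). Ddit4 (REDD1), an inhibitor of mTORC1, had 4.48 and 4.64, a difference of 0.16 at a signal close to the floor.

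The enzymes of amino acid and one-carbon supply, classical ATF4 targets, differed by less than the median gap between probe sets of a gene (0.249), apart from Phgdh. Asns, asparagine synthetase, had 7.61 in wildtype cells and 7.47 in those labelled HuR-deficient, a difference of -0.14. In the serine pathway, Phgdh, its first enzyme, had 4.58 and 3.95, a difference of -0.63, with the weaker signal under the floor, so that its fold is not certain. Psat1, the next enzyme, had 6.44 and 6.26, a difference of -0.18. The large difference of Phgdh therefore rests on a weak signal, where genes of like signal had a robust SD of 0.525.

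Shmt2, which moves a carbon from serine to folate in mitochondria, had 7.17 and 7.21, a difference of 0.04. Mthfd2, the next mitochondrial folate enzyme, had 7.39 and 7.14, a difference of -0.25. Of the 5 enzymes that passed, 4 lay below 0, with a median of -0.18.

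ATF4 and its partners bind the CARE, searched here as TGATGNAA on either strand. It was found in 6 members (Asns, Chac1, Herpud1, Nupr1, Trib3 and Aars) and in 3.97% of all promoter windows; the match in Trib3 lies after the start site, as does 1 of 2 in Aars. The windows of the members with the lowest and highest difference among the measured carriers of the ATF4 branch, Chac1 and Nupr1, and of Asns, whose match lies nearest the start site among the 3, are shown with the fixed letters in capitals.
Chac1, chr2:119351037-119351068, + strand: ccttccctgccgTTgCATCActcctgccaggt
Nupr1, chr7:126625561-126625592, - strand: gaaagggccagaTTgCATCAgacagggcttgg
Asns, chr6:7693213-7693244, - strand: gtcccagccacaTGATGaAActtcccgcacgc

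Chac1 and Nupr1 carry the same 8 letters on the same strand, yet differed by -0.43 and 0.69. Among the 279 genes that passed with a CARE match, the median difference was -0.04 and 148 (53.0%) lay below 0, close to the 48.5% of all genes with a window.

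**Figure D4:**
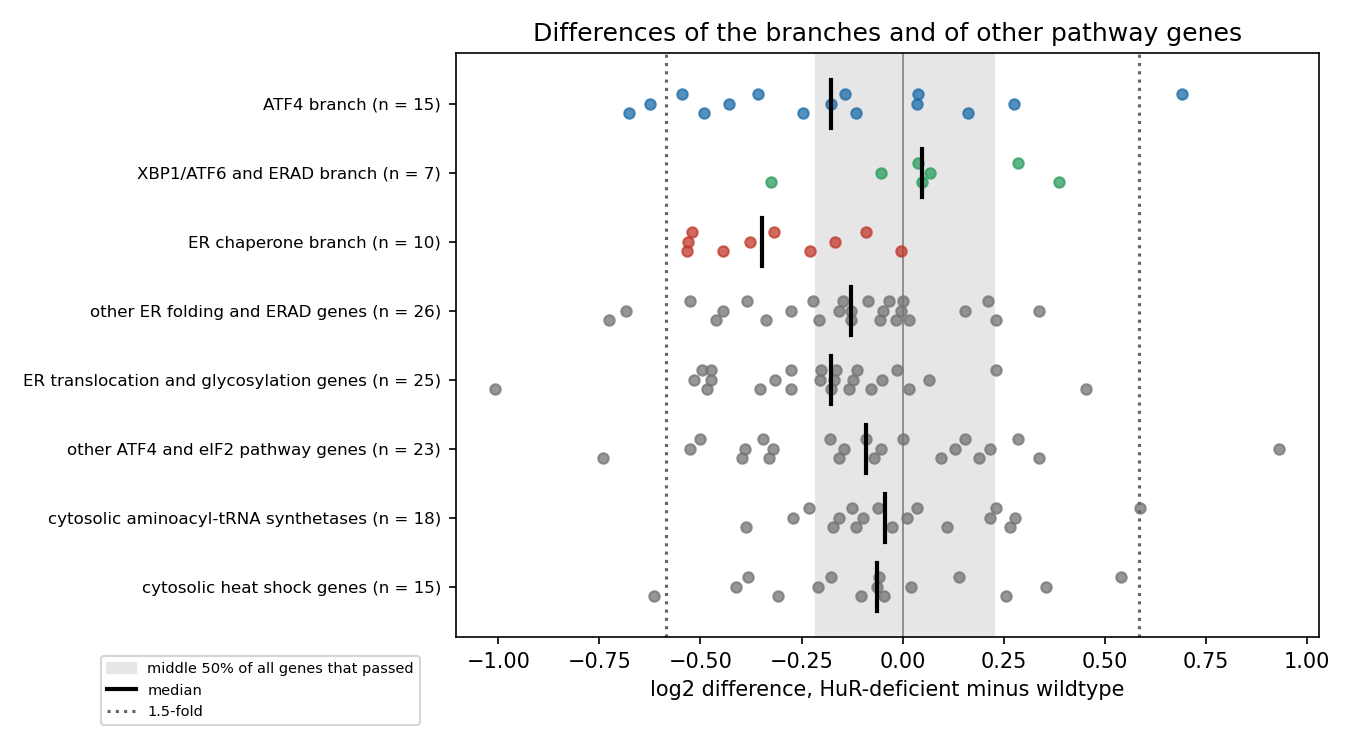
Log2 difference, array labelled HuR-deficient minus wildtype array (x axis), of the genes that passed in the 3 branches (coloured) and in 5 other lists (grey); each point is 1 gene, black bars are medians, the grey band holds the middle 50% of all genes that passed and dotted lines mark 1.5-fold. The median of the ER chaperone branch (-0.35) lies outside the grey band and those of the other 7 lists inside it.

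Other genes of the pathways were then read from lists of general knowledge. These lists were chosen with earlier results of these data known, so they are not independent of them. Of 26 further ER folding and ERAD genes that passed, 20 lay below 0 and 6 above, with a median of -0.13, where 48.6% of all genes lay below 0. At least 1.5-fold lower were 2, a share near the background of 5.32%, and 0 were higher. The lower ones were P4hb, the principal protein disulfide isomerase (6.44 in wildtype cells and 5.75 in those labelled HuR-deficient, difference -0.68), and Txndc11 (5.60 and 4.87, difference -0.73). The lectin chaperones Canx (9.41 and 8.95, difference -0.46) and Calr (7.64 and 7.20, difference -0.44) and the BiP exchange factor Hyou1 (5.05 and 4.66, difference -0.39) lay between the chaperone members in size.

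The machinery that brings proteins into the ER and attaches glycans was read next. Of 25 such genes, 21 lay below 0 and 4 above, with a median of -0.18, against 48.6% of all genes below 0. At 1.5-fold the count of 1 is near the background of 5.32%. Spcs3, a subunit of the signal peptidase, was that gene (7.65 and 6.64, difference -1.01) and is also past 2-fold.

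Cytosolic counterparts had medians closer to 0. Of 15 cytosolic heat shock genes that passed, 10 (66.7%) lay below 0, against 48.6% of all genes, with a median of -0.06. At least 1.5-fold lower was 1, Hspa1b (10.58 and 9.97, difference -0.61), where 5.32% of all genes were. Transcripts of its near-identical copy Hspa1a may enter its signal. Of 18 cytosolic aminoacyl-tRNA synthetase genes, several of which are ATF4 targets, 10 (55.6%) lay below 0, with a median of -0.04. At least 1.5-fold higher was 1, Qars (7.16 and 7.74, difference 0.59), where 5.44% of all genes were.

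Among 23 further ATF4 and eIF2 pathway genes that passed, 14 (60.9%) lay below 0 and 8 above, with a median of -0.09. Of all genes, 48.6% lay below 0. At 1.5-fold, 1 was lower and 1 higher, near the background of 5.32% and 5.44%. Mthfd1l, a mitochondrial folate enzyme, was lower (5.37 and 4.63, difference -0.74), and Stc2, a secreted stress-induced glycoprotein, was higher (4.38 and 5.31, difference 0.93) from a wildtype signal at the floor. Atf3, an early target of ATF4 and of inflammatory signals, had 7.09 and 7.43, a difference of 0.34. Eif2ak2, which encodes the double-stranded RNA sensor PKR and was picked out after its values were seen, had 8.08 and 8.21, a difference of 0.13. Of the other eIF2 kinase genes, likewise picked out afterwards, Eif2ak1 (HRI) had 5.81 and 5.48, a difference of -0.33, and Eif2ak4 (GCN2) had 4.91 and 5.01, a difference of 0.09. The differences of Eif2ak2, Eif2ak4 and Atf4 were smaller than the median gap between probe sets of a gene, and that of Eif2ak1 was larger.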

How the data were processed

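The log2 values, 1 column for each array, were made by the authors with RMA, per the submitters' processing notes; its version, the annotation and the build were not given in the sources used here. As RMA fits the arrays to a common distribution (their medians here are 4.08 and 4.10), total mRNA per cell is not seen. Of 41345 probe sets, 23521 had 1 gene symbol in the platform's table, 1814 several and 16010 none. Genes with several one-symbol probe sets took the one with the highest mean; list entries were matched by symbol or, for 5, by Entrez ID. The signal floor was 4.38. No p-value was computed. The members and lists were chosen with earlier results of these data known. All 35 members are named where measured; of the other lists, those past 1.5-fold plus Atf3, Hyou1, Calr, Canx and Elavl1, by rule. Named outside the rule, after their values were seen, are Eif2ak1, Eif2ak2, Eif2ak4, Ero1b, Alg12, Pan2, Zfp57, Hnrnpa3, Xlr3a and Spats2l. The counting steps were tested on simulated data with planted differences larger than that of any member. That test therefore does not bear on counts of small differences. Planned C-terminal retention signals were not analysed here, since no protein table was used. The software was Python 3.11.15 with statsmodels 0.14.6, pandas 2.3.3, numpy 2.4.6 and matplotlib 3.10.9.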

Additional observations from a re-analysis of the deposited data

How the results depend on the processing

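The alternatives were centring on the median, a further quantile normalisation, removal of a lowess trend on signal (span 0.3), averaging of probe sets, no signal filter, a floor of 6, and thresholds of 2-fold and of 0.322 on the log2 scale. The medians of the chaperone branch, of the ATF4 branch and of all members kept their sign under the 6 alternatives to processing and filter, with chaperones between -0.35 and -0.34 and ATF4 between -0.18 and -0.14; shifts were read against 0.249, the median gap between probe sets of a gene. The median of the XBP1, ATF6 and ERAD branch turned to -0.0026 with the floor of 6, which left 4 genes. Under quantile normalisation and under the lowess trend, 1 chaperone (Manf) lay above 0. With the floor of 6, the ATF4 branch had 6 members below 0, 3 above and 1 at least 1.5-fold lower, the ERAD branch 2 above, and all members 5 above and 1 at least 1.5-fold lower; fewer genes were tested there. At 2-fold, 0 members were counted. At 0.322, 6 ATF4 and 5 chaperone members were lower, 1 ERAD member was lower and 1 higher, and over all members 12 were lower and 2 higher. Of all genes that passed, 16.8% were lower and 17.4% higher by that much. Among the members so counted, Eif2ak3, Phgdh and Syvn1 passed the filter through 1 array alone. No paired analysis was possible because there is 1 array per genotype; for the same reason no array could be left out. Signals near the floor (among them Eif2ak3, Phgdh, Syvn1, Ddit4, Chac1, Trib3, Sel1l, Ern1 and Stc2) were not shown to lie above background.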
